A study of Mus musculus with 10 samples.

Results

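The genes described here encode chaperones and proteases that fold and degrade proteins in the mitochondrial matrix and at the inner membrane. They are Hspd1, Hspe1, Hspa9, Dnaja3, Trap1, Lonp1, Clpp, Clpx, Afg3l2 and Yme1l1. Every probe set that the platform annotation gives to exactly 1 of these 10 genes was taken, which gave 25 of the 45101 probe sets on the array. The knockout hearts came from female mouse embryos at 13.5 days post coitum (dpc) with a heterozygous, heart-conditional deletion of Hccs. The control hearts came from female littermates of the same stage. There were 5 arrays per genotype, each with RNA from a pool of 4 to 5 hearts of 1 genotype. Hccs encodes the enzyme that attaches haem to mitochondrial cytochromes and is X-linked, so a heterozygous female heart holds cells with and without the enzyme. The Cre driver and the controls' alleles are not given in the sources used here.

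Most mitochondrial proteins are made in the cytosol and enter the matrix unfolded. Hspa9, the mitochondrial Hsp70, pulls them in, and the Hspd1 and Hspe1 chaperonin folds many of them, while Lonp1 and the Clpp and Clpx pair degrade those that misfold. Afg3l2 and Yme1l1 are proteases of the inner membrane. The active site of Afg3l2 faces the matrix and that of Yme1l1 faces the intermembrane space, so Yme1l1 is strictly not a matrix enzyme. Matrix stress is known to raise transcripts of some of these genes in mammalian cells, with the transcription factors Ddit3, Atf4 and Atf5 named as regulators.

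Hspd1 and Hspe1 are neighbours that run in opposite directions from a common promoter region. In the RefSeq promoter table of GRCm38.p6, 1 of 2 Hspd1 starts lies 216 bases upstream of the start of Hspe1. The other Hspd1 start lies 95 bases downstream of it. The stretch between the upstream Hspd1 start and the Hspe1 start, at chr1:55087933-55088147, is shown because the 2 genes' signals are compared below. It is printed on the plus strand, so that it runs toward Hspe1.
Hspe1 and Hspd1 common stretch: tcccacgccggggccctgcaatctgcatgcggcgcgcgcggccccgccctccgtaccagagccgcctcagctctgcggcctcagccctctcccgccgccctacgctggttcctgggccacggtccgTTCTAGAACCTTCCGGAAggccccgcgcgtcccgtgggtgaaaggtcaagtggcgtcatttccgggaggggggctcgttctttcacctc
The 18 capitals, from 89 to 72 bases before the start of Hspe1, mark 2 overlapping matches to the heat shock element. It was searched, on both strands like every motif here, as TTC, GAA and TTC with 2 bases between neighbours.

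RefSeq promoter windows, 250 bases before to 50 after a start, were matched for 8 of the 10 genes, all but Hspa9 and Afg3l2. Of all 32851 windows, 0.603% held the heat shock element, and among the 8 genes only Hspd1 and Hspe1 had it. The letters CCGGAAG, bound by GABPA and other ETS factors, stood in windows of 5 genes (Hspd1, Hspe1, Dnaja3, Clpp and Yme1l1) and in 8.86% of all windows. In the Hspd1 and Hspe1 windows these letters overlap the heat shock match. The cyclic AMP response element TGACGTCA stood in the Trap1 window and in 1.79% of all windows. NRF1-type letters, GCGCA and GCGC with 1 base between, stood in windows of Hspd1 and Dnaja3 and in 4.6% of all windows. The ATF4-type letters TGATGNAA stood in none of these 8 genes' windows and in 3.97% of all windows. A match is a description of the letters and not evidence of binding.
The Trap1 match lies at chr16:4077838-4077869, read on the minus strand, and the upstream Dnaja3 match at chr16:4684010-4684043, read on the plus strand, with the matched letters in capitals.
Trap1: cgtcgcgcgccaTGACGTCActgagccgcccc
Dnaja3: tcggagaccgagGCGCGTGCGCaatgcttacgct

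As a check of the genotypes, the brighter Hccs probe set did not overlap between groups. Its log2 signal was 10.68 ± 0.20 in knockouts and 11.23 ± 0.08 in controls (mean ± SD, n = 5 each, exact two-sided permutation p = 0.00794, the smallest that 5 against 5 arrays allow). In limma its adjusted p was 0.0225, and it reached 0.0563 at most with 1 array left out, missing 0.05 without knockout replicate 2 or 4 or control replicate 2 or 3. All 8 cardiomyocyte markers averaged between 10.43 and 16.14 on the log2 scale, as the heart label implies. The linear signals of the 8 markers were summed on each array, so the brightest weigh most. The log2 of this sum was 17.62 to 17.77 in knockouts and 17.85 to 18.04 in controls. All 8 had a negative log2 change, and 7 had an unadjusted limma p under 0.05 in the lower direction, beside 7.48% of all genes. Of the 8, 1 passed the test described below, beside 0.945% of all genes called lower. The 5 epicardial markers all had a positive log2 change, and 1 passed, beside 1.63% of all genes called higher. The log2 of their summed linear signals was 13.23 to 13.54 in knockouts and 12.86 to 13.33 in controls. Of 6 endothelial markers 3 had a positive change, and 3 had an unadjusted limma p under 0.05 in the lower direction. So did 2 of 4 smooth muscle and 1 of 4 erythroid markers, beside 7.48% of all genes. None of the endothelial, smooth muscle, fibroblast, macrophage or erythroid markers passed. The part of these shifts in the results below was not tested, and in whole hearts fewer cells of a type and less RNA per cell cannot be told apart. The signal of the 18S 5' control probe set was 8.17 ± 0.35 in knockouts and 10.05 ± 1.25 in controls (log2, mean ± SD, n = 5 each, exact two-sided permutation p = 0.0238). Control replicate 3, at 8.06, lay within the knockout range of 7.84 to 8.57. The 18S signal differed with genotype, so any effect of it cannot be told apart from that of genotype.

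Of the 10 genes, Hspa9 rose in the knockout hearts and the other 9 did not pass the threshold. Changes are log2 signals, knockout minus control, fitted with limma with 1 probe set per gene, the brightest. P-values were adjusted by the Benjamini-Hochberg method over 18193 genes with a threshold of 0.05. Over all genes 1.63% were called higher, 0.945% lower and 2.58% in either direction, and a count of 1 in 10 is too small to be set against these shares. An unadjusted limma p under 0.05 in the higher direction was reached by 5 of the 10 genes, Hspa9, Hspe1, Clpx, Dnaja3 and Clpp, where 13.2% of all genes reached it, and by 0 of the 10 in the lower direction, where 7.48% did. The median log2 change of the 10 genes was 0.139, beside 0.0248 for all genes. A positive change was seen for 9 of 10, against 60.5% of all genes, and for 7 of 10 after quantile normalization, where Lonp1 and Trap1 turned negative. With the most variable probe set of each gene it was also 7 of 10, with Clpx and Yme1l1 negative. In 2 of the 10, Hspa9 and Clpp, every knockout pool lay above every control pool, which was so for 3.86% of all genes. The 10 genes were chosen with earlier results of these data known, so their shares are a description and not a test.

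**Figure D1:**
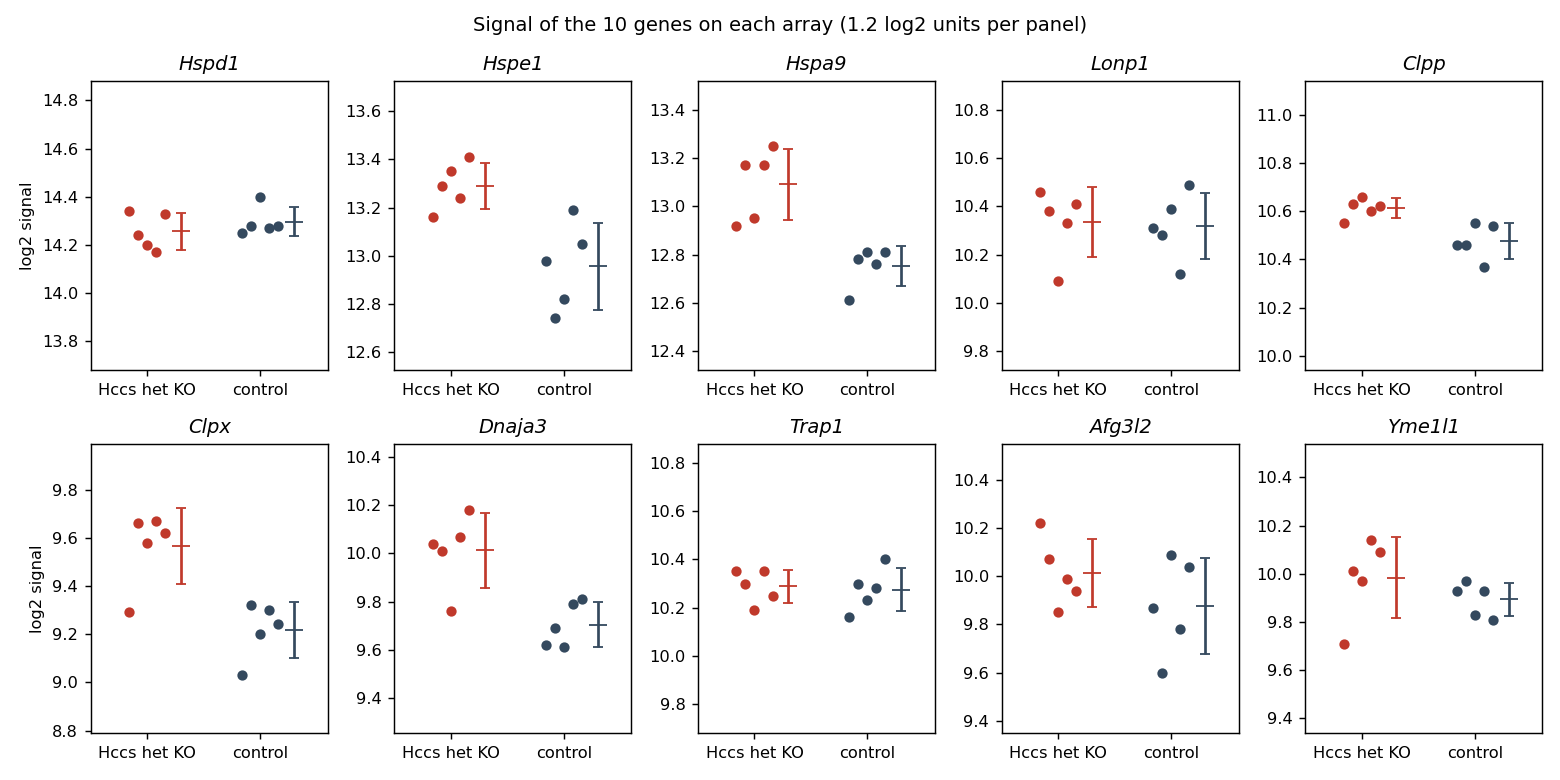
Log2 signal of the brightest probe set of each gene on each array, with Hccs heterozygous knockouts in red and controls in dark blue. Points are pools in replicate order, the bar beside them is the mean with the SD (n = 5), and every panel spans 1.2 log2 units. The groups do not overlap for Hspa9 and Clpp, and they overlap for the other 8 genes.

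Hspa9 is the mitochondrial Hsp70, the ATPase that pulls precursors through the inner membrane and helps to fold them. Its log2 signals were 12.92, 13.17, 12.95, 13.17 and 13.25 in knockout replicates 1 to 5, against 12.61, 12.78, 12.81, 12.76 and 12.81 in control replicates 1 to 5. Every knockout value lay above the highest control value. Hspa9 rose 1.26-fold, which is 0.34 log2 units (SE 0.0727), and passed in limma with an adjusted p of 0.0447. Control replicate 3, whose 18S signal was in the knockout range, had 12.81, below every knockout pool. That is 1 array, and whether the 18S difference bears on the Hspa9 signal was not tested. The call rested on a small margin. It was kept without knockout replicate 1 and lost without any other single array, with an adjusted p from 0.0186 to 0.104 and a log2 change from 0.30 to 0.38 over the 10 fits.

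The array has 5 probe sets for Hspa9, and 3 of them had groups that did not overlap. The second brightest, 1418503_at, gave 11.99 to 12.25 in knockouts and 11.79 to 11.96 in controls, a log2 change of 0.25 (SE 0.0521). A dimmer one, 1431274_a_at, gave 8.48 to 8.82 in knockouts and 7.89 to 8.42 in controls, a log2 change of 0.48 (SE 0.113). The probe set 1447728_x_at had a log2 change of 0.15 with overlapping groups. Affymetrix marks such "x" probe sets as open to cross-hybridisation. The last, 1453811_at, averaged 2.91 in knockouts and 2.93 in controls, below the array medians of 3.65 to 3.76, and carries no usable measure of Hspa9. In the fit over all 45037 probe sets other than array controls, none of the 25 passed an adjusted p of 0.05, where 0.822% of all probe sets were called higher and 0.318% lower. The brightest Hspa9 probe set had an adjusted p of 0.0597 there. The unadjusted limma p was under 0.05 for 13 of the 25 in the higher direction, against 13.7% of all probe sets. In 6 of the 25, from Hspa9, Clpp, Dnaja3 and Afg3l2, the knockout pools all lay above the controls, against 3.79% of all probe sets.

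**Figure D2:**
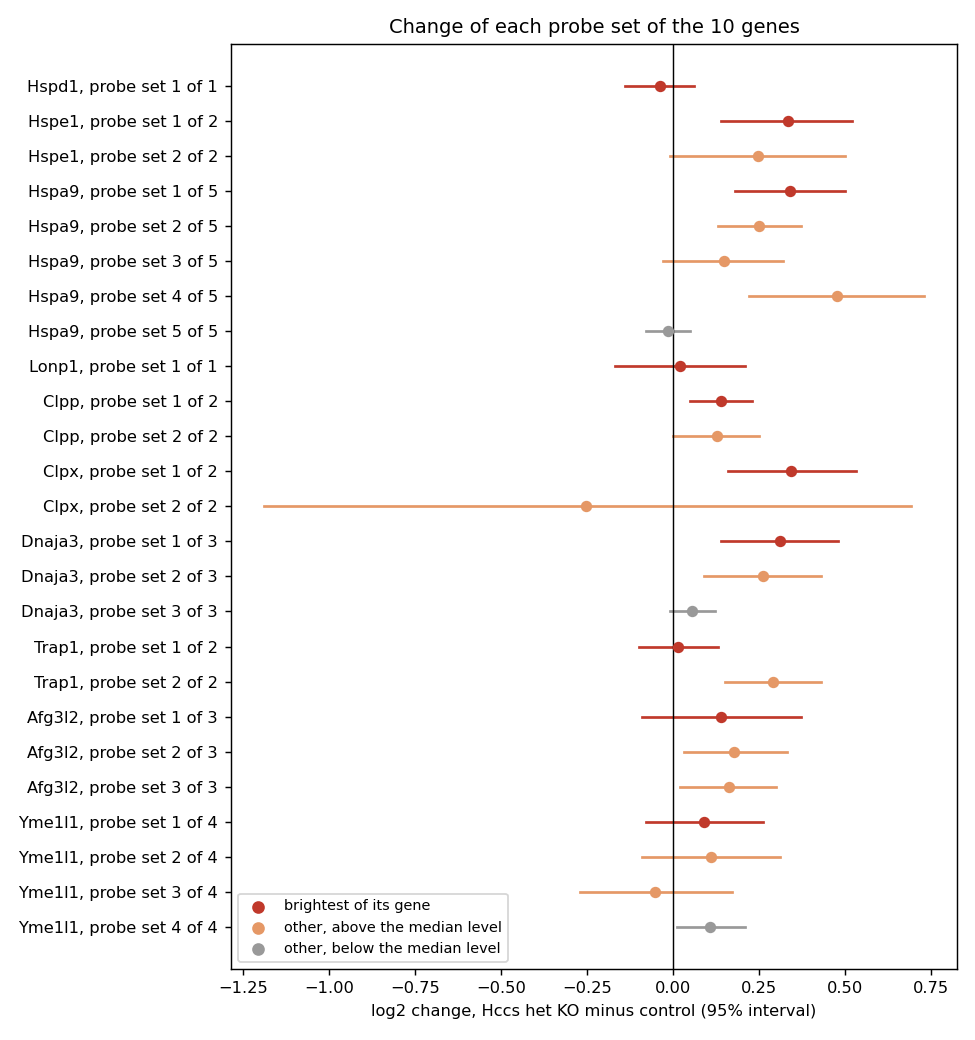
Log2 change, knockout minus control, of each of the 25 probe sets with its 95% interval from limma (n = 5 arrays per group). Red marks the brightest probe set of a gene, orange another probe set above the median level of 3.69, and grey one below it. The brightest probe sets of Hspe1, Hspa9, Clpp, Clpx and Dnaja3 have intervals above 0, and so does that of the second probe set of Trap1 but not that of the first.

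Dnaja3, also called Tid1, is the J-domain partner that stimulates the ATPase of Hspa9. Its brightest probe set gave 10.04, 10.01, 9.76, 10.07 and 10.18 in knockout replicates 1 to 5, against 9.62, 9.69, 9.61, 9.79 and 9.81 in control replicates 1 to 5. Knockout replicate 3 lay below the top 2 control pools, and the other 4 knockout pools lay above all controls. At 0.31 (SE 0.0762) the log2 change did not pass in limma (adjusted p = 0.0655). Without knockout replicate 3 it was 0.37 with an adjusted p of 0.0337. The second probe set gave 8.95 to 9.33 in knockouts and 8.74 to 8.93 in controls, a log2 change of 0.26 (SE 0.0773), and the third lay below the array medians in both groups. The within-array difference, Dnaja3 minus Hspa9, changed by -0.03 between genotypes (exact permutation p = 0.722, n = 5 each).

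Hspd1 and Hspe1 form the chaperonin, a barrel of Hspd1 subunits that Hspe1 closes as a lid. Hspd1, measured by 1 probe set, had log2 signals of 14.34, 14.24, 14.20, 14.17 and 14.33 in knockout replicates 1 to 5, against 14.25, 14.28, 14.40, 14.27 and 14.28 in control replicates 1 to 5. Of the knockout pools 3 lay below all controls and 2 among them. With a log2 change of -0.04 (SE 0.0467, 95% interval -0.14 to 0.06), Hspd1 did not pass in limma (adjusted p = 0.651).

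Hspe1 gave 13.16, 13.29, 13.35, 13.24 and 13.41 in knockout replicates 1 to 5, against 12.98, 12.74, 12.82, 13.19 and 13.05 in control replicates 1 to 5. Control replicate 4 lay just above knockout replicate 1, and otherwise the groups were apart. At 0.33 log2 units (SE 0.085), the change of Hspe1 missed the threshold in limma (adjusted p = 0.0718). That probe set, 1450668_s_at, carries the "s" suffix that Affymetrix gives to probes common to several transcripts, so related copies may add to its signal. The other Hspe1 probe set gave 11.78 to 12.11 in knockouts and 11.41 to 11.90 in controls, with a log2 change of 0.25 (SE 0.115).

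The genes of the common stretch were set against each other within each array. Hspe1 minus Hspd1 was -1.18, -0.95, -0.85, -0.93 and -0.92 in knockout replicates 1 to 5, against -1.26, -1.54, -1.59, -1.08 and -1.23 in control replicates 1 to 5. All knockout pools except replicate 1 lay above all control pools. The change of this difference was 0.37 log2 units, which is 1.29-fold (exact two-sided permutation p = 0.0159, n = 5 each, adjusted p = 0.0476 over 6 pairs). Such a difference shows an unequal change of the 2 signals and not which of them moved. The adjusted p passed in 2 of the 10 comparisons with 1 array left out, those without knockout replicate 1 or control replicate 4, and it ran from 0.0476 to 0.119. The change itself stayed between 0.31 and 0.44 in them.

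Hspa9 minus Hspd1 differed as well. It was -1.42, -1.07, -1.25, -1.0 and -1.07 in knockout replicates 1 to 5, against -1.64, -1.50, -1.59, -1.51 and -1.46 in control replicates 1 to 5, with no overlap. The change was 0.38 log2 units (exact two-sided permutation p = 0.00794, n = 5 each, adjusted p = 0.0476 over 6 pairs). The adjusted p was 0.0714 without control replicate 1, 2, 3 or 5 and passed without each of the other 6 arrays. Hspa9 minus Hspd1 and Hspe1 minus Hspd1 share the single Hspd1 probe set, so they are not independent results. Of the other 4 pairs none passed. Clpp minus Clpx changed by -0.20 (exact permutation p = 0.0556, adjusted p = 0.111, n = 5 each). Its sign depended on the probe sets used, with changes of 0.09 from the mean of each gene's probe sets and 0.38 from the most variable ones, neither past the threshold. Lonp1 minus Clpp changed by -0.12 (exact permutation p = 0.183, n = 5 each), and Yme1l1 minus Afg3l2 by -0.05 (exact permutation p = 0.762, n = 5 each).

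**Figure D3:**
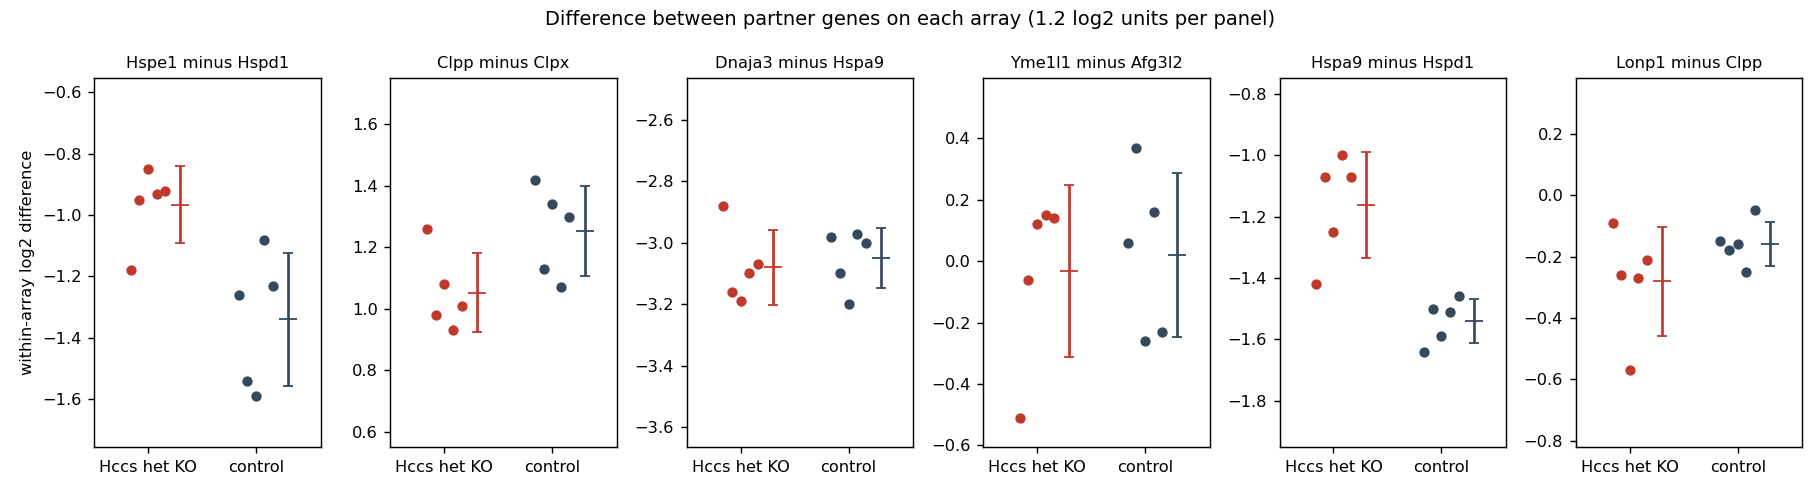
Within-array log2 difference between 2 partner genes, with knockouts in red and controls in dark blue. Points are pools in replicate order, the bar is the mean with the SD (n = 5), and every panel spans 1.2 log2 units. Knockout pools lie above all control pools for Hspa9 minus Hspd1, 4 of 5 do for Hspe1 minus Hspd1, and the groups overlap widely for Dnaja3 minus Hspa9. The position of a panel on its axis depends on the probes, so only the offset between groups can be read.

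Trap1, the mitochondrial member of the Hsp90 family, gave probe sets that differed. The brighter one, 1416170_at, had 10.35, 10.30, 10.19, 10.35 and 10.25 in knockout replicates 1 to 5, against 10.16, 10.30, 10.23, 10.28 and 10.40 in control replicates 1 to 5. The groups overlapped, and the log2 change was 0.01 (SE 0.0513, 95% interval -0.10 to 0.13), with an adjusted p of 0.901 in limma. The dimmer one, 1437379_x_at, had 9.68, 9.89, 9.83, 9.97 and 9.88 in knockout replicates 1 to 5, against 9.49, 9.68, 9.62, 9.54 and 9.47 in control replicates 1 to 5. Knockout replicate 1 was level with control replicate 2 there, and the other 4 knockout pools lay above all controls. Its log2 change was 0.29 (SE 0.0603), with an adjusted p of 0.057 in the limma fit over all probe sets. Taking the most variable probe set of each gene picked this one, and Trap1 then had an adjusted p of 0.047. It carries the "x" suffix, and no statement on Trap1 as a gene can be drawn from the pair.

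Clpx is the ATPase that unfolds proteins and feeds them to the peptidase Clpp, and it also acts on the first enzyme of haem synthesis. Its brighter probe set gave 9.29, 9.66, 9.58, 9.67 and 9.62 in knockout replicates 1 to 5, against 9.03, 9.32, 9.20, 9.30 and 9.24 in control replicates 1 to 5. Knockout replicate 1 lay among the controls, and the other 4 lay above them. At 0.34 log2 units (SE 0.0819), the change of Clpx missed the threshold in limma (adjusted p = 0.0605), and without knockout replicate 1 it was 0.41 with an adjusted p of 0.00987. The other probe set, near 5 on the log2 scale, ranged from 4.05 to 4.99 in knockouts and from 3.83 to 6.0 in controls. Its log2 change of -0.25 had an SE of 0.418, so it says little about Clpx.

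Clpp, the peptidase of the pair, gave 10.55, 10.63, 10.66, 10.60 and 10.62 in knockout replicates 1 to 5, against 10.46, 10.46, 10.55, 10.37 and 10.54 in control replicates 1 to 5. The lowest knockout and the highest control pool were almost level, and the groups did not overlap. A log2 change of 0.14 (SE 0.0405) had an adjusted p of 0.101 in limma, and the second probe set had 0.13 (SE 0.0557) with overlapping groups. Neither passed.

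Lonp1, the ATP-dependent protease that removes oxidised and surplus matrix proteins, gave 10.46, 10.38, 10.09, 10.33 and 10.41 in knockout replicates 1 to 5, against 10.31, 10.28, 10.39, 10.12 and 10.49 in control replicates 1 to 5. The groups overlapped throughout. Its log2 change of 0.02 (SE 0.0843, 95% interval -0.17 to 0.21) had an adjusted p of 0.917 in limma.

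Neither inner membrane protease passed. Afg3l2, a subunit of the matrix-facing protease that also matures mitochondrial ribosomal protein, gave 10.22, 10.07, 9.85, 9.99 and 9.94 in knockout replicates 1 to 5, against 9.87, 9.60, 10.09, 9.78 and 10.04 in control replicates 1 to 5. These groups overlapped, with a log2 change of 0.14 (SE 0.102) and an adjusted p of 0.46 in limma. Its other probe sets had log2 changes of 0.18 (SE 0.0668) and 0.16 (SE 0.0639). In the last of these, 1454003_at, the knockouts gave 4.43 to 4.80 and the controls 4.36 to 4.43 without overlap, at a low level. Yme1l1, which processes the fusion protein Opa1, gave 9.71, 10.01, 9.97, 10.14 and 10.09 in knockout replicates 1 to 5, against 9.93, 9.97, 9.83, 9.93 and 9.81 in control replicates 1 to 5. Knockout replicate 1 was the lowest of all 10 pools. The log2 change was 0.09 (SE 0.0761, 95% interval -0.08 to 0.26), with an adjusted p of 0.53 in limma. Those of its other 3 probe sets were 0.11, -0.05 and 0.11, the last from signals below the array medians.

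Of 20 measured genes for other mitochondrial chaperones, import motor subunits, prohibitins and proteases, 0 passed in limma, beside 2.58% of all genes in either direction. A count of 0 in 20 is too small to be set against that share. An unadjusted p under 0.05 was reached by 4 of them, all higher, beside 13.2% of all genes. The list median was 0.0462. Phb2, a prohibitin and the brightest of them, had a log2 change of 0.10 (SE 0.0534). Clpb, a mitochondrial disaggregase, was named after its values were seen. It gave 8.60 ± 0.05 in knockouts and 8.40 ± 0.09 in controls (log2, mean ± SD, n = 5 each), with no overlap. Its adjusted p was 0.0551 in limma. Its dimmer probe set had a log2 change of 0.37 (limma adjusted p = 0.048 over all probe sets).

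Chaperones of other compartments were set beside them as a description. Of 14 chaperones of the endoplasmic reticulum 0 passed in limma, beside 2.58% of all genes in either direction, and this count too is small. The unadjusted p of 3 was under 0.05, all higher, beside 13.2% of all genes. The median log2 change was -0.0228. Calr, calreticulin and the brightest, had a log2 change of -0.20 (SE 0.0998). Of 23 cytosolic chaperones 1 was called higher by its brightest probe set, beside 1.63% of all genes, and the median was 0.0718. It was Cct2, a subunit of the cytosolic chaperonin. The unadjusted p of 9 was under 0.05 in the higher direction and that of 2 in the lower, beside 13.2% and 7.48% of all genes. Hspb1, a small heat shock protein named after its values were seen, gave 13.48 ± 0.17 in knockouts and 13.80 ± 0.07 in controls (log2, SD over 5 arrays), with no overlap and an adjusted p of 0.0647 in limma. The Cct2 signal was 14.25 ± 0.29 in knockouts and 13.65 ± 0.04 in controls (log2, SD over 5 arrays), with an adjusted p of 0.0413 in limma. Its other 2 probe sets, at 13.75 and 13.54 in knockouts, had log2 changes of 0.03 each. Their limma adjusted p over all probe sets was 0.737 and 0.71, so no statement on Cct2 as a gene can be drawn. The Cct2 call was kept without knockout replicate 1 and lost without any other single array (adjusted p up to 0.0972). Hspa8, the constitutive cytosolic Hsp70, was the brightest one not called, at 0.20 log2 units (SE 0.0558). Whether the matrix genes differ from these lists was not tested.

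Of the 5 listed transcription factors linked to mitochondrial stress, 4 were measured and all 4 rose, against 1.63% of all genes called higher. The list was chosen with earlier results of these data known, so this count is a description and not a test against that share. Atf4 gave 11.17, 11.37, 10.94, 11.31 and 11.34 in knockout replicates 1 to 5, against 10.72, 10.74, 10.68, 10.54 and 10.67 in control replicates 1 to 5. It rose 1.47-fold (limma adjusted p = 0.0174) and kept its call whichever single array was left out. Ddit3, which encodes CHOP, rose 1.84-fold, to 9.22 ± 0.24 in knockouts against 8.34 ± 0.23 in controls (log2, SD over 5 arrays), with an adjusted p of 0.0207 in limma. Atf5 rose 2.53-fold and Cebpb 1.57-fold (limma adjusted p = 0.0207 and 0.0445). All 4 had groups that did not overlap. The call of Atf5 was lost without knockout replicate 2 or 4 and that of Ddit3 without knockout replicate 4, with adjusted p of 0.0524 and 0.0504 at most. Cebpb kept its call without knockout replicate 1 alone, with an adjusted p of up to 0.0965 without the others. Counted over the list, 2 passed without knockout replicate 2 and 1 without knockout replicate 4. Hsf1, the heat shock factor, was not analysed here.

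**Figure D4:**
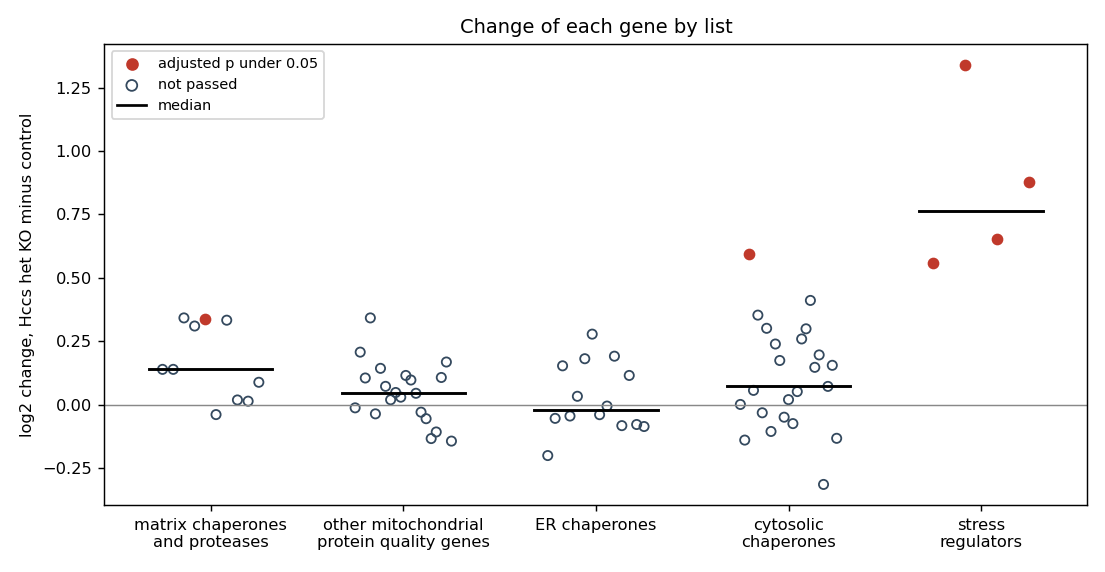
Log2 change, knockout minus control, of each measured gene of 5 lists. Filled red points passed a limma adjusted p of 0.05 over 18193 genes, open points did not, and the black line is the list median. The medians are 0.139 for the matrix chaperones and proteases, 0.0462 for other mitochondrial genes, -0.0228 for the endoplasmic reticulum, 0.0718 for the cytosol and 0.765 for the 4 stress regulators.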

How the data were processed

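Labelled cRNA from 10 pools of embryonic hearts was hybridised to Affymetrix arrays, 1 array per pool. Signals were deposited on the log2 scale, from 0.602 to 16.6, and the tools named per the submitters' processing notes are RMA and Partek, without versions. RMA gives the arrays a common distribution, so changes are relative to the other transcripts, and detection calls and scan batches were not given. Symbols come from the platform annotation, with 34945 probe sets on 1 gene, 932 on several and 9160 on none, besides 64 array controls. For genes, the probe set with the highest mean was used, giving 18193. limma 3.58.1 in R 4.3.3 (lmFit, eBayes, genotype as the only term, no filter) was run on genes and on all 45037 other probe sets. The 6 partner pairs were compared by exact permutation over the 252 splits of the arrays. The script was tested on simulated data. Alternatives were a replicate block, quantile normalization of the arrays, centring on array medians, a filter at the median level, eBayes with trend and robust, array weights, other choices of probe set, each array left out, and both arrays numbered 3 left out. All 10 genes are named. Of each other list the genes that passed and the brightest that did not are named, and all measured stress regulators. The members and lists were chosen with earlier results of these data known. Figures used matplotlib 3.10.9 and Python 3.11.15.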

Additional observations from a re-analysis of the deposited data

Results flagged for a closer look

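Of 50 groups of 5 arrays, 2 for each probe set, 3 held 1 pool far from the other 4 (gap over range above 0.71), and chance alone flags about 5% of groups. Control replicate 3 was high for Hspd1, at 14.40 against 14.28 for the next control. Control replicate 1 was low for the brightest Hspa9 probe set, at 12.61 against 12.76, and without it the log2 change of Hspa9 was 0.302 with a limma adjusted p of 0.0931. Knockout replicate 1 was low for Clpx, at 9.29 against 9.58 for the next knockout pool.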

How the results depend on the processing

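The 1 call among the 10 genes, Hspa9, became 0 with the replicate block, 0 without both arrays numbered 3, 2 when a gene's probe sets were averaged, 4 with the filter at the median level and 4 with array weights, and 0 to 2 with 1 array left out. With the most variable probe set and without knockout replicate 3 the count stayed at 1, but the gene was Trap1 in the first and Dnaja3 in the second. Member probe sets called, 0 in the fit as reported, numbered 2 with median centring, 1 with the filter, 6 with array weights and 0 to 3 with 1 array left out. These calls among the 10 genes and their probe sets were all in the higher direction. Other mitochondrial genes called, 0 as reported, numbered 1 with array weights and 2 with either other choice of probe set. Endoplasmic reticulum chaperones numbered 1 with the most variable probe set and 0 to 1 with 1 array left out. Stress regulators numbered 1 with the block, Ddit3, so that Atf4, Atf5 and Cebpb lost their calls, 2 without both arrays numbered 3 and 1 to 4 with 1 array left out. Cytosolic chaperones numbered 0 with the block, 2 with quantile normalization, 2 with median centring, 4 with the filter, 4 with trend and robust, 7 with array weights, 0 with the mean, 3 with the most variable probe set, 0 without both arrays numbered 3 and 0 to 6 with 1 array left out. The counts of 4, 4, 7 and 6 each include 1 lower call, Hspb1. Over all genes 469 were called as reported, 36 with the block, 30 without both arrays numbered 3, 759 of 9096 with the filter and 945 with array weights. With 1 array left out, 1042 of all genes were called without knockout replicate 1 and 105 to 427 without any other array. A call kept only without knockout replicate 1 therefore goes with more calls over all genes in that fit. The log2 change of Hccs stayed at -0.551 with the block (adjusted p = 0.0735), was -0.591 without both arrays numbered 3 (adjusted p = 0.0714) and ran from -0.605 to -0.48 with 1 array left out. Hspe1 minus Hspd1 was 0.286 with the most variable probe set (adjusted p = 0.19), 0.282 without both arrays numbered 3 (adjusted p = 0.171) and 0.31 to 0.437 with 1 array left out. Hspa9 minus Hspd1 was 0.387 without both arrays numbered 3 (adjusted p = 0.171) and 0.337 to 0.443 with 1 array left out. Without both arrays numbered 3, no unadjusted permutation p could be under 0.0286. After adjustment over 6 pairs, a miss in that setting therefore does not show that a difference was lost. Lonp1 minus Clpp was -0.168 to -0.0489 with 1 array left out, and passed without knockout replicate 1. Fewer arrays and splits also lower the power of these tests. The causes of the other shifts were not tested. The labels do not say whether the replicate numbers pair the pools. Same-numbered arrays had correlations of deviations from -0.0657 to 0.107, and 2 of 10 arrays correlated best with their own number. Such correlations do not show a pairing and cannot exclude one, so the fit with the replicate block is given beside the main one. The number of arrays limits the precision.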
